A study of Rattus norvegicus with 18 samples.

Results

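In cultured rat hippocampal neurons, 9 genes were followed across a short activation of the transcription factor MEF2: Fgl2, Ptpn21, Opn3, Gask1b, B3gnt2, Fam43a, Rapgef5, Mlf1 and Dzip1l. They were named because their signal was much higher after 2.5 h of activation, so their values at that time describe how they were chosen and carry no test here. All probe sets that the array's annotation gives to these symbols were taken, each separately: 15 probe sets for 9 genes, of 31042 probe sets and 14217 named genes in all. Fgl2 has 4 of them, B3gnt2 has 3, Gask1b has 2 and the other genes 1 each. For a gene with several, the lead probe set is the one with the largest induction at 2.5 h.

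The 18 Affymetrix arrays carry biotin-labelled cRNA from dissociated rat hippocampal neurons. A lentivirus was added on day 3 in culture and 4-hydroxytamoxifen (4OHT) on day 10, for 0, 1 or 2.5 h. One virus expressed MEF2-VP16-ER and the control virus MEF2deltaDBD-VP16-ER, so every culture carried a VP16-ER fusion and the 1 h and 2.5 h cultures of both constructs received the ligand. Each of the 6 groups (construct by time) had 3 arrays, labelled as biological replicates. The promoter driving the constructs is unstated in the labels, and a VP16 fusion is an artificially strong activator rather than the neurons' own MEF2.

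MEF2 proteins are DNA-binding factors that recognise an A/T-rich site and, in neurons, respond to calcium entry during synaptic activity. In the fusion, VP16 supplies a strong activation domain, and the estrogen receptor part holds the protein inactive until 4OHT binds it. The control lacks the DNA-binding domain and therefore shows what ligand and virus do without MEF2 binding. The 9 genes share no pathway: they encode a fibrinogen-like protein, a phosphatase, an opsin, enzymes of the Golgi, a Rap activator and less studied proteins.

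Medians of the arrays lay between 190.4 and 197.0 intensity units. Markers of neurons gave strong signal (Map2 had a mean intensity of 12878 and Snap25 of 9206), and the summed level of 9 neuron markers lay between 35985 and 41176 on every array. Astrocyte RNA was also present, with Gfap at a mean of 8529. In whole cultures, fewer cells of a type and less RNA per cell cannot be told apart. Of the measured markers of neurons (9), astrocytes (7), microglia and macrophages (12), oligodendrocytes (8), endothelium (5) and fibroblasts (6), 0 passed limma's adjusted p under 0.05 in the 2.5 h comparison, with or without the replicate number as a block, and 3 had an unadjusted p under 0.05. Of all 31042 probe sets 0.177% passed there, 0.937% with the block, and 1485 had an unadjusted p under 0.05. Summed astrocyte markers (33346 to 49138 over all arrays) were highest on replicate 1 in 6 of the 6 groups, and those of oligodendrocytes (6938 to 11921) and fibroblasts (1817 to 7099) on replicate 3 in 6 of the 6. The fibroblast sum was mostly Pdgfra, at a mean of 3131. Dcn was at 641, and Col1a1, Col1a2, Col3a1 and Lum lay between 41.6 and 131. The sum is named after its list. Whether it follows the number of fibroblasts, or whether Pdgfra came from other cells, was not examined. The markers with the 2 inductions farthest from 0 in each list, none past the threshold, were Syt1 (-0.25) and Prox1 (-0.23) for neurons, Slc1a2 (0.41) and Aldh1l1 (0.23) for astrocytes, and C1qa (0.48) and C1qb (0.30) for microglia and macrophages. They were Olig2 (-0.44) and Sox10 (-0.32) for oligodendrocytes, Kdr (0.19) and Tek (-0.09) for endothelium, and Pdgfra (-0.57) and Col3a1 (0.17) for fibroblasts, in log2 units.

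The label of low starting signal held for 6 of the 9 genes. Before 4OHT the lead probe sets of Fgl2, Ptpn21, Opn3, Gask1b, Fam43a and Mlf1 were under the array median on all 6 arrays, with means of 49.9, 162, 87.6, 89.5, 169 and 76.4. Those of B3gnt2 (278), Dzip1l (259) and Rapgef5 (1024) were above it on all 6. Brightness also depends on the probes, so these figures do not rank the transcripts.

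The promoter windows shown are those of Fam43a and Mlf1, with the highest and lowest share of the 2.5 h induction at 1 h, and of Opn3. Beside Fam43a, Opn3 was the other gene called at 1 h in the blocked fit described further on. Each line is the 250 bases before the start in RefSeq's rat table (build GRCr8), 5′ to 3′ in the direction of the gene. Capitals mark TGACGTCA (the cyclic AMP response element), CCAAT and GGGCGG (a GC box), searched on both strands, so that CCGCCC is a GC box of the other strand.
Fam43a, chr11:83636314-83636563, minus strand: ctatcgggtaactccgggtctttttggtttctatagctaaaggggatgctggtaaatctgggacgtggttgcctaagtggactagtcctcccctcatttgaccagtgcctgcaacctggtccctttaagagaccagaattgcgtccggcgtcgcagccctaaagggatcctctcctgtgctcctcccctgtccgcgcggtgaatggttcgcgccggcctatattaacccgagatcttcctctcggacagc
Opn3, chr13:90152077-90152326, minus strand: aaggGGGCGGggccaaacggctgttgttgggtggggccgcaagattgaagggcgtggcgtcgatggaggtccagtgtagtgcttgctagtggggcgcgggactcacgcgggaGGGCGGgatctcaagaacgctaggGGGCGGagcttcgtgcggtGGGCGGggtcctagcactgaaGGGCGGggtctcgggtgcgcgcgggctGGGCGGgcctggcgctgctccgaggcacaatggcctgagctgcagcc
Mlf1, chr2:153958341-153958590, plus strand: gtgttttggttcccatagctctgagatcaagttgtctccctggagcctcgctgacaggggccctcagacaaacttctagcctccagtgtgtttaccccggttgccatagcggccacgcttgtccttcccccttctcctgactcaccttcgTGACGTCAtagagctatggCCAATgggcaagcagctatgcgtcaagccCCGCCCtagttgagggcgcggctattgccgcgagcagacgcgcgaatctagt

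RefSeq's table held 9 such windows for 8 of the 9 genes, 2 of them for Rapgef5; Fgl2 was not matched. The MEF2 consensus was found in 0 of the 9 windows and in 2.97% of 33360 distinct windows of all genes, and the CArG box, the site of the related factor SRF, in 0 of 9 and in 499 of the 33360. The palindrome TGACGTCA was in the Mlf1 window alone among these genes, ending 92 bases before the start, against 1.59% of all windows. Its first 5 bases alone, TGACG, which it contains, were in the windows of B3gnt2 and Mlf1 (2 of 9, against 18.2%). CCAAT was in the windows of Gask1b, Mlf1 and Rapgef5 (3 of 9, against 34.0% of all), and GGGCGG in those of Mlf1, Opn3, Ptpn21 and Rapgef5 (4 of 9, against 30.5%). TATAAA was in 0 of 9, against 12.9%. A match is only a run of letters, and sites outside these 250 bases were not searched.

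Fgl2 encodes a fibrinogen-like protein that exists as a membrane form able to cleave prothrombin and as a secreted form that dampens immune cells. Its lead probe set read 88.9, 36.9 and 35.6 at 0 h in MEF2-VP16-ER neurons (replicates 1 to 3), 329, 101 and 65.2 at 1 h, and 681, 314 and 309 at 2.5 h. In control neurons it read 68.1, 39.1 and 30.7 at 0 h, 84.2, 63.2 and 35.7 at 1 h, and 60.4, 38.2 and 31.2 at 2.5 h. At 2.5 h the MEF2-VP16-ER arrays lay far above all control arrays, whereas at 1 h the groups overlapped.

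Replicate 1 gave the highest Fgl2 value in each of the 6 groups. The mean at 2.5 h was therefore uncertain, at 435 ± 213 (SD, n = 3) with MEF2-VP16-ER and 43.2 ± 15.3 in control neurons. Whether the control signal of this probe set is above background was not examined here, so no fold is given. Summed markers of microglia and macrophages, cells in which Fgl2 is known, were also highest on replicate 1 in 5 of the 6 groups: 1922, 1716 and 1562 in control neurons at 0 h and 1746, 1516 and 1457 in MEF2-VP16-ER neurons at 2.5 h. The means of the 12 markers ran from 46.8 for Ptprc to 233 for Aif1, most of them under the array medians. Whether they were above background was not examined. Their sum lay between 1422 and 1922 over all arrays. At 2.5 h the sums of the MEF2-VP16-ER arrays (1457 to 1746) overlapped those of the control arrays (1511 to 1701), and the median induction of the 12 was 0.13 log2 units. The part of these cells, or of the astrocytes that were also highest on replicate 1, in the replicate pattern of Fgl2 was not tested.

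Gask1b encodes a protein of the Golgi kinase family. Its lead probe set read 85.9, 96.3 and 84.8 at 0 h with MEF2-VP16-ER, 90.9, 122 and 117 at 1 h, and 266, 249 and 271 at 2.5 h. Control arrays stayed between 82.0 and 103 at all times. The 2.5 h values were the tightest of the 9 lead probe sets (262 ± 11.8, SD, n = 3) and 2.94 times the 0 h mean.

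B3gnt2 encodes a glycosyltransferase that extends poly-N-acetyllactosamine chains on glycoproteins. With MEF2-VP16-ER its lead probe set read 225, 313 and 258 at 0 h, 327, 378 and 367 at 1 h, and 623, 558 and 579 at 2.5 h. Control arrays lay between 261 and 338 throughout, so the groups still overlapped at 1 h and no longer did at 2.5 h, when the means were 587 ± 33.3 and 304 ± 37.3 (SD, n = 3).

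Ptpn21 encodes a tyrosine phosphatase with a FERM domain, which places it at the cell cortex. Its single probe set read 179.7, 139 and 154 at 0 h with MEF2-VP16-ER, 239, 169 and 246 at 1 h, and 681, 445 and 939 at 2.5 h. Control arrays lay between 134 and 182 throughout. At 1 h replicate 2 was still among the control values (the highest control array at that time read 179), while the other two arrays were above them.

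Rapgef5 encodes an exchange factor that activates Rap GTPases. Before ligand its mean was higher with MEF2-VP16-ER, though the arrays overlapped: 1105, 1292 and 1049.6 with MEF2-VP16-ER against 875, 1092 and 729 in control neurons at 0 h. At 1 h the values were 1299, 1268 and 1152 against 829.6, 1088 and 809, and at 2.5 h they were 2140.5, 2365 and 1812 against 872, 966 and 776. The larger step with MEF2-VP16-ER came between 1 h and 2.5 h, where the mean went up 1.70-fold.

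Opn3 encodes encephalopsin, an opsin found in brain. In MEF2-VP16-ER neurons it read 74.9, 104 and 111 at 0 h, 141, 138 and 131 at 1 h, and 326, 388 and 529.9 at 2.5 h. Control neurons read 84.3, 67.9 and 83.1, then 78.0, 95.3 and 65.5, then 93.5, 69.4 and 123. The 3 MEF2-VP16-ER arrays at 1 h were closely grouped (136 ± 4.76, SD, n = 3) and all above the control arrays of that time.

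Fam43a, whose product is little characterised, was the early one. With MEF2-VP16-ER it read 169.7, 167 and 158 at 0 h, 379, 255 and 247 at 1 h, and 338, 378 and 459 at 2.5 h, against 139 to 193 over all control arrays. In replicate 1 the 1 h value was above the 2.5 h value, and the groups were already apart at 1 h.

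Mlf1, named for its fusion in a myeloid leukaemia, had the lowest induction at 1 h of the lead probe sets. It was not separable there from Rapgef5 and Dzip1l. Its MEF2-VP16-ER arrays read 79.7, 73.4 and 77.3 at 0 h, 95.2, 69.0 and 80.3 at 1 h, and 180.1, 137 and 187 at 2.5 h. Control arrays lay between 63.9 and 91.6, so that at 1 h the groups were intermixed and at 2.5 h they were separate.

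Dzip1l encodes a protein of the transition zone of the cilium. It read 269, 290.0 and 303 at 0 h with MEF2-VP16-ER, above the control arrays of that time (240.3, 250.3 and 199.7), then 343, 285 and 344 at 1 h and 458, 463 and 789 at 2.5 h. Control arrays never exceeded 261. Replicate 3 at 2.5 h stood apart. Without that 1 array the induction in the fit without the block was 0.57 instead of 0.82 log2 units. Computed within replicates 1 to 3, the induction was 0.75, 0.74 and 0.97. On the MEF2-VP16-ER arrays at 2.5 h, summed fibroblast markers, mostly Pdgfra, were also highest on replicate 3 (5236, against 1817 and 3502). So were summed oligodendrocyte markers (10458, against 7230 and 7583). In control neurons at 2.5 h (fibroblast sum of 6435, against 3720.3 and 3583) Dzip1l read 261 on replicate 3 and 238 and 233 on the others. In control neurons at 0 h (fibroblast sum of 6993 on replicate 3) Dzip1l was lowest on that replicate, at 199.7 against 240.3 and 250.3. The same held at 1 h (fibroblast sum of 7092), at 211.7 against 245.7 and 238.5. Over the 6 groups Dzip1l was highest on replicate 3 in 4 and both sums in 6. The part of these markers was not tested.

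**Figure D1:**
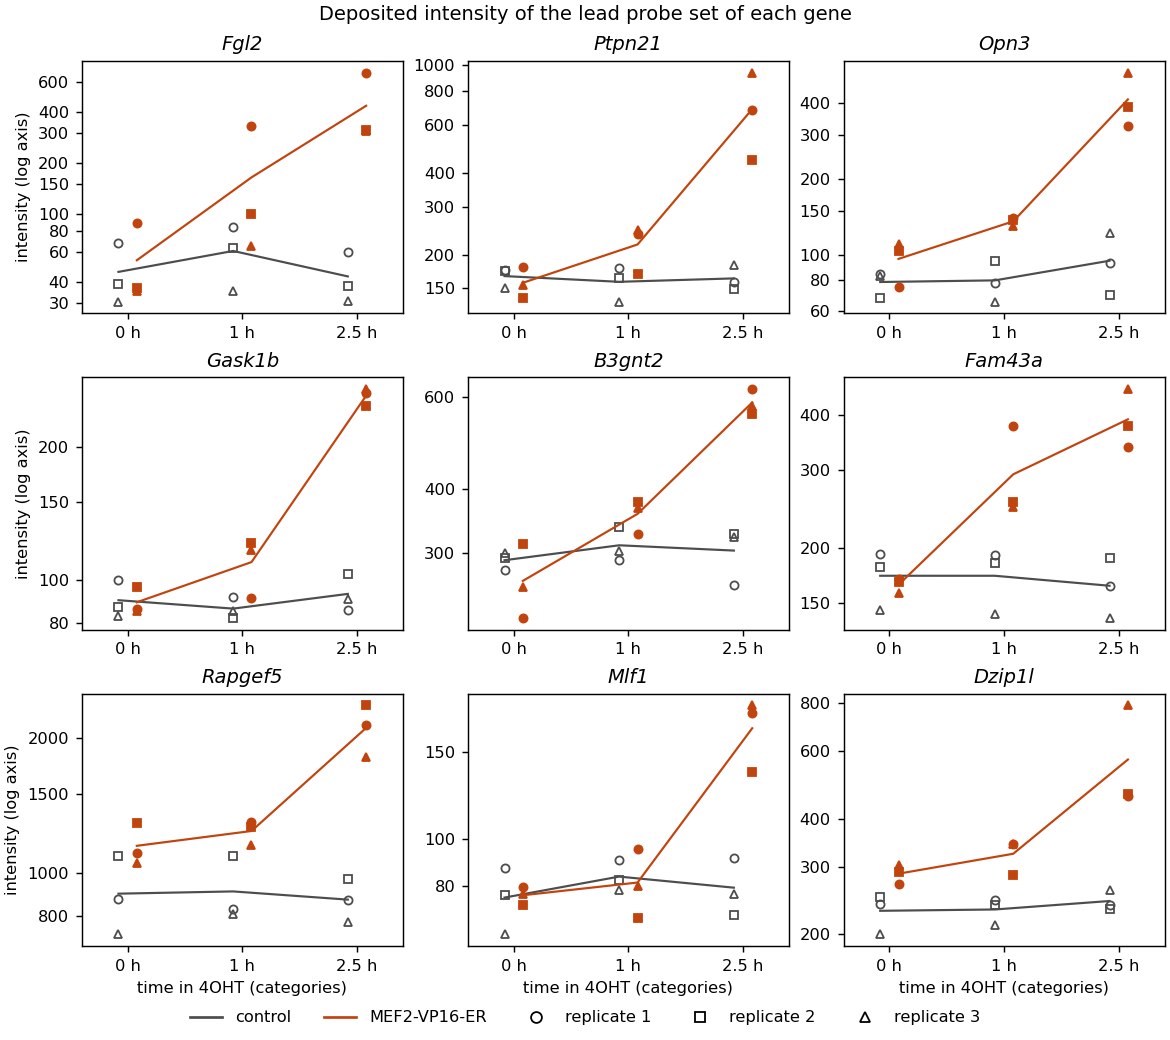
Deposited intensity (log axis, each panel with its own range) of the lead probe set of each gene at 0, 1 and 2.5 h of 4OHT (categories, not to scale). Points are single arrays, with the shape giving the replicate number, and lines join the means of 3 arrays for control (grey, open) and MEF2-VP16-ER (orange, filled). At 2.5 h every MEF2-VP16-ER array is above every control array of the gene, while at 1 h Fam43a, Opn3, Rapgef5 and Dzip1l are separate and Mlf1 is intermixed.

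Inductions subtract the control neurons' change since 0 h from that of the MEF2-VP16-ER neurons, on the log2(intensity + 16) scale, which understates the change of dim probe sets. At 2.5 h it was 2.73 ± 0.67 for Fgl2 (SE, 3 arrays in each of 4 groups), the highest estimate among all 31042 probe sets, then 1.99 ± 0.29 for Ptpn21, 1.71 ± 0.27 for Opn3, 1.36 ± 0.13 for Gask1b, 1.23 ± 0.23 for Fam43a, 1.06 ± 0.15 for B3gnt2, 0.92 ± 0.18 for Mlf1, 0.89 ± 0.21 for Rapgef5 and 0.82 ± 0.22 for Dzip1l. Control neurons contributed little: their own change from 0 h to 2.5 h lay between -0.07 (Fam43a) and 0.21 (Opn3) for the lead probe sets. Since this contrast chose the genes, these are descriptions. For reference, 4 of the 15 probe sets passed limma's adjusted p under 0.05 as higher, where 0.139% of all probe sets did (0.0387% were called lower), and 10 of 15 with the replicate number as a block, where 0.564% did. The excess over all probe sets follows from the choice of the genes and tests nothing.

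The inductions at 1 h were smaller. For Fgl2 the value was 0.86 ± 0.67, for Fam43a 0.75 ± 0.23, for Ptpn21 0.49 ± 0.29, for Opn3 0.44 ± 0.27, for B3gnt2 0.33 ± 0.15 and for Gask1b 0.30 ± 0.13, while Dzip1l (0.15 ± 0.22), Rapgef5 (0.09 ± 0.21) and Mlf1 (-0.06 ± 0.18) were within 1 SE of 0. These SEs too come from the fit without the block. For replicates 1 to 3 Dzip1l was 0.30, 0.04 and 0.10, Rapgef5 0.30, -0.02 and -0.02, and Mlf1 0.17, -0.16 and -0.20. The 1 h inductions share the 0 h arrays with the 2.5 h values and are given as descriptions as well. In all, 1 of 31042 probe sets (0.00322%) passed the adjusted threshold for the 1 h induction, and it belonged to Bambi, which is not among the 9.

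Set against the 2.5 h induction, Fam43a had reached 61.1% of it by 1 h on the log2 scale. Fgl2 (31.7%), B3gnt2 (31.1%), Opn3 (25.6%), Ptpn21 (24.7%) and Gask1b (22.3%) followed. Dzip1l (17.8%), Rapgef5 (10.0%) and Mlf1 (-6.61%) had the lowest shares. The neighbours in this order are not separable. Over the replicate numbers the share, as a fraction, had an SD of 0.28 for Fam43a, 0.27 for Opn3 and 0.22 for Mlf1. The SD was 0.20 for Rapgef5, 0.19 for Dzip1l and 0.11 for the median of the 9. Fam43a had the highest share in replicates 1 and 2 (0.95 and 0.52) and B3gnt2 in replicate 3 (0.46, with Fam43a at 0.42), whereas Mlf1 had the lowest in replicates 2 and 3 (-0.18 and -0.22) and Gask1b in replicate 1 (0.11, with Mlf1 at 0.17).

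The median share of the 9 was 24.7%, with quartiles of 17.8% and 31.1%. The 39 other probe sets called higher at 2.5 h had a median of 33.2% with quartiles of 14.4% and 56.7% and extremes of -20.5% and 91.4%.

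**Figure D2:**
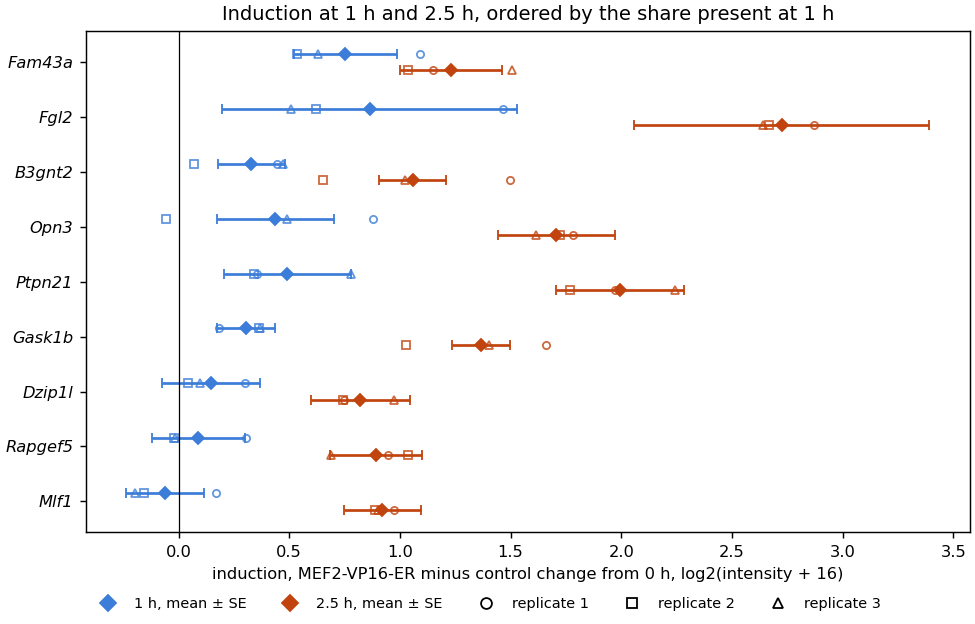
Induction at 1 h (blue) and 2.5 h (orange) of the lead probe sets in log2(intensity + 16) units, ordered by the share of the 2.5 h value present at 1 h. Diamonds with bars are the fitted mean ± SE, and open symbols are the inductions computed within each replicate number. Fam43a shows the smallest distance between its 1 h and 2.5 h values, 0.75 and 1.23, and Mlf1 is at -0.06 at 1 h.

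MEF2-VP16-ER was also compared with control at 1 h, in a fit of those 6 arrays alone, which take no part in the 2.5 h induction. Which values chose the genes is not recorded in full, and the 1 h arrays were taken as not used. Nor are they independent of the 2.5 h arrays, since the residuals of same-numbered arrays at 1 h and 2.5 h correlated at 0.24 to 0.75. It asks whether the genes already differed between the constructs 1 h after ligand. Of the 15 probe sets 14 were higher with MEF2-VP16-ER, and the median over the 9 lead probe sets was 0.45 log2 units, while over all 31042 probe sets 45.3% were higher and the median was -0.01.

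No probe set passed limma's adjusted p under 0.05 in this fit of 6 arrays, member or not (0 of 31042, 0%). At unadjusted p under 0.05 it had 643, or 2.07%. Of the 15 member probe sets 7 were higher at that level (1.06% of all were higher), and 6 had all 3 MEF2-VP16-ER arrays above all 3 control arrays, which held for 2.63% of all probe sets. The reverse order held for 0 of 15 and for 3.86% of all. Those 6 were the lead probe sets of Opn3, Fam43a, Rapgef5 and Dzip1l and a further one each of Fgl2 and Gask1b.

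Arrays of the same replicate number deviated together at 1 h, and with that number as a block Opn3 and Fam43a passed. The difference was 0.68 ± 0.11 for Opn3 (SE, 3 arrays in each group; limma adjusted p = 0.913, with the block 0.0163) and 0.70 ± 0.18 for Fam43a (adjusted p = 1.00, with the block 0.0242). Both were higher in 3 of 3 replicate numbers. These were 2 of 15 probe sets, where 0.190% of all were called higher with the block. With all 18 arrays in the fit, 0 of 15 were called, where 0.0548% of all were called higher. With the block, leaving out 1 array also removes the weight of its partner, so such fits rest on 2 pairs. Both calls with the block were lost without the pair of replicate 1 (limma adjusted p = 0.151 for each gene). The number of probe sets called with the block, 76 in all, also rested on single replicates. It was 22 without the pair of replicate 1, 48 without that of replicate 2 and 275 without that of replicate 3.

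The other lead probe sets did not pass in either fit of all 6 arrays. Fgl2 had the largest difference, 1.00 with a 95% interval of -0.29 to 2.29 (limma adjusted p = 1.00, with the block 0.163), and it ranged from 0.39 without MEF2-VP16-ER replicate 1 to 1.43 without MEF2-VP16-ER replicate 3. In the blocked fit without the pair of replicate 3, which rests on the other 2 pairs, Fgl2 passed, at 1.17 (limma adjusted p = 0.00569). Dzip1l was at 0.45 (0.22 to 0.68, with the block adjusted p = 0.114), Rapgef5 at 0.45 (0.16 to 0.75, adjusted p = 0.117 with the block), Ptpn21 at 0.41 (0.03 to 0.80), Gask1b at 0.29 (0.04 to 0.55), B3gnt2 at 0.19 (-0.01 to 0.39) and Mlf1 at -0.04 (-0.30 to 0.22). These intervals come from the fit without the block and are not adjusted for the number of probe sets.

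Before 4OHT the estimated difference between the constructs, given without a test, was 0.36 ± 0.15 for Rapgef5, 0.31 ± 0.16 for Dzip1l and 0.25 ± 0.19 for Opn3 (SE, 3 arrays in each group). It was positive in 3 of 3 replicate numbers for Rapgef5 and Dzip1l, but for Opn3 it was -0.14, 0.52 and 0.36 in replicates 1 to 3. The other 6 lead probe sets lay between -0.14 and 0.13, with Fam43a at -0.05.

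**Figure D3:**
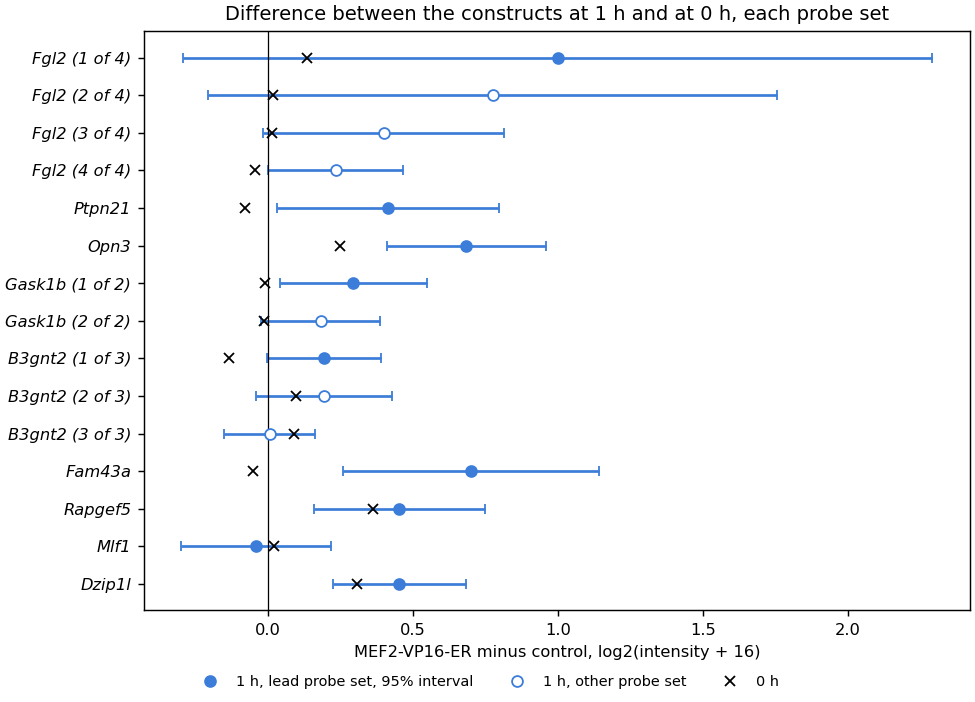
Difference between the constructs in log2(intensity + 16) units for each of the 15 probe sets, at 1 h (circles with unadjusted 95% intervals from the fit of the 6 arrays at 1 h, filled for lead probe sets) and at 0 h (crosses). Fam43a moves from -0.05 to 0.70 and Opn3 from 0.25 to 0.68, whereas the values at 0 h and 1 h lie closer together for Rapgef5 (0.36 and 0.45) and Dzip1l (0.31 and 0.45).

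The probe sets of 1 gene did not all respond alike. For Fgl2 the inductions at 2.5 h were 2.73, 2.13, 1.12 and 0.47, all positive, and the probe set at 2.13 read 224, 108 and 103 at 0 h and 868, 573 and 447 at 2.5 h with MEF2-VP16-ER. The second probe set of Gask1b was at 0.36 from 41.0, 40.1 and 41.8 to 55.1, 53.6 and 56.8, a small step that left no overlap. Those of B3gnt2 were at 1.06, 0.34 and -0.05. The last of them stayed between 37.5 and 46.7 on all 18 arrays. Which transcripts each probe set detects was not examined.

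Relatives of each gene were followed in the 2.5 h comparison, which did not choose them. They were listed by family or by a wider group of like enzymes or domains. Of 46 measured relatives (57 listed) 0 passed limma's adjusted p under 0.05, where 0.177% of all probe sets did, 1 had an unadjusted p under 0.05, and 19 were positive, with a median of -0.04 against 0.004 for all probe sets. Among all 31042 probe sets 1485 had an unadjusted p under 0.05 and 51.5% were positive.

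Fam43b, the paralog of Fam43a, moved the other way, at -0.76 ± 0.22 (SE, 3 arrays in each of 4 groups; limma adjusted p = 0.425). With the replicate block it fell (adjusted p = 0.00157), the 1 relative called there, where 0.374% of all probe sets were called lower. Its MEF2-VP16-ER arrays went from 611, 660 and 526 at 0 h to 388, 468 and 303 at 2.5 h, below all control arrays of that time (628, 725 and 612). At 1 h it was at -0.20 between the constructs.

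Relatives of the enzymes and receptors stayed near 0. The 4 measured FERM-domain phosphatases related to Ptpn21 lay between -0.03 and 0.16, with Ptpn4 (0.16) and Ptpn13 (0.15) the largest. Among 4 measured opsins and related genes Rgr (0.19) and Opn4 (0.10) were highest. Of 8 genes of the Golgi and secretory kinase group, Pkdcc was at -0.33 and Dipk1b at -0.14. Dipk2a had no induction at 2.5 h (0.002), but at 1 h it was 0.48 higher with MEF2-VP16-ER, a difference that passed only with the block (limma adjusted p = 0.0221, against 1.00 without it). It read 1092, 1081 and 963 there and 801, 798 and 643 in control neurons. At 0 h its mean was already higher with MEF2-VP16-ER, at 787 against 704, and its induction at 1 h was 0.33.

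Of 11 glycosyltransferases listed with B3gnt2, most of them B4galt genes, 3 were positive, with B4galt5 (-0.28) and B4galt3 (-0.14) the farthest from 0. The 11 proteins with a fibrinogen domain lay between -0.22 (Angptl4) and 0.16, with Fga at -0.17. Rap exchange factors were led by Rapgef1 (-0.21) and Rapgefl1 (-0.20), and only Rapgef2 (0.18) of 5 was positive. Mlf2 and Dzip1 were both at -0.08.

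Further members of 2 of the pathways were also counted in the 2.5 h comparison. There 0.177% of all 31042 probe sets passed, 0.937% with the block, 1485 had an unadjusted p under 0.05 and 51.5% were positive. Of 16 genes of Rap signalling 0 passed with or without the block (2 at unadjusted p under 0.05), the median was 0.05 with 10 positive, and the GTPase-activating Sipa1l1 (0.36) and Sipa1l2 (0.29) were the largest. Of 19 measured cilium genes 0 passed in either fit (1 at unadjusted p under 0.05), the median was -0.003 with 9 positive, and the transition zone gene Tmem231 (-0.34) and the intraflagellar transport gene Ift20 (-0.19) stood farthest from 0.

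**Figure D4:**
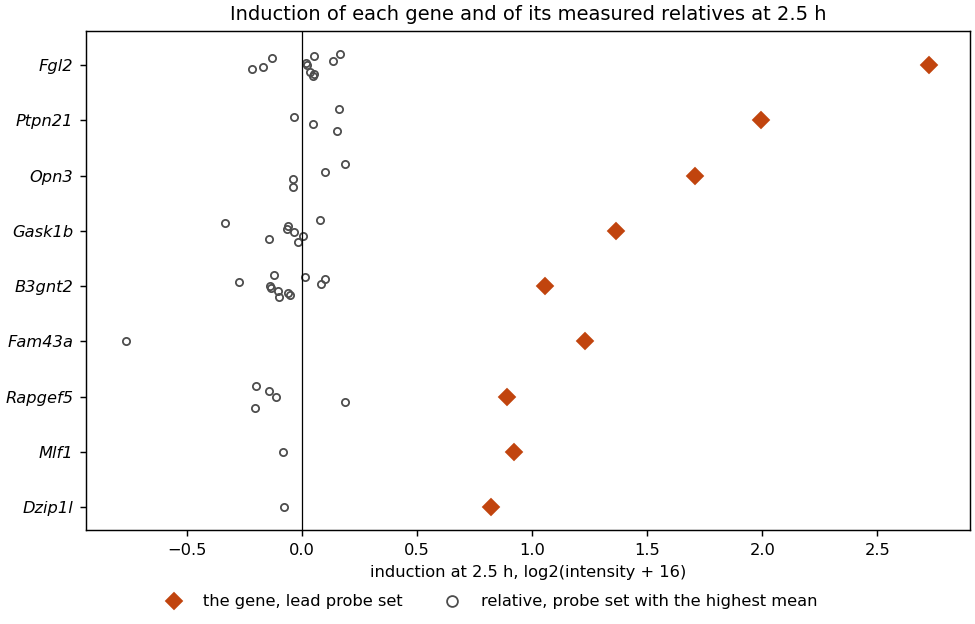
Induction at 2.5 h in log2(intensity + 16) units of each gene (orange diamond, lead probe set) and of its measured relatives (open circles, 1 probe set per gene, chosen by the highest mean). The 46 relatives lie between -0.76 (Fam43b) and 0.19 (Rgr). The 9 genes were chosen for this value and shown by their most induced probe set, so their distance from the relatives follows from the choice.

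Genes with a pattern like that of the 9 were sought by Pearson's r over the 18 arrays with the mean standardised profile of the 9 lead probe sets. The closest were Col10a1, a collagen of cartilage (r = 0.98), Pwwp3b (0.98), the zinc finger gene Zfp46 (0.97), Ctrb1, which encodes chymotrypsinogen (0.96), and Rnf122, a RING-finger gene (0.95). Ctrb1 had an induction of only 0.36 at 2.5 h, so likeness in shape does not mean likeness in size. Between the 9 lead probe sets r ranged from 0.76 to 0.95 over 36 pairs, with a median of 0.85. All of these points share arrays, groups and cultures, and the genes were chosen for one pattern.

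By single genes, Col10a1 was closest to Ptpn21 (r = 0.98) and Gask1b (0.96), and Rnf122 to Fgl2 (0.94) and Fam43a (0.95). Usp25 was closest to Opn3 (0.96), Gbx2 to B3gnt2 (0.92), Zfand5 to Rapgef5 (0.95), Ctrb1 to Dzip1l (0.95) and Mitf to Mlf1 (0.94). Mitf shared with Mlf1 an induction at 2.5 h (1.19) with none at 1 h (-0.13).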

How the data were processed

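The authors deposited 1 table of intensity values on a linear scale, 1 per probe set and array; per the labels' protocols cRNA was labelled by standard Affymetrix procedures, and summarisation and normalization are not given in the sources used here. Probe sets were named from the platform annotation, and 57 control probe sets were left out. Values were used as log2(intensity + 16) without further normalization or filter, in limma 3.58.1 (R 4.3.3) with Benjamini-Hochberg adjustment over 31042 probe sets. The 1 h comparison used its 6 arrays, other contrasts all 18 arrays with a mean per group. Fits were tested on simulated data. The 9 genes and the lists were chosen with earlier results of these data known. Text names all member probe sets, in each list the genes called at 2.5 h and the 2 farthest from 0, and the closest patterns; Dipk2a, Rapgef2, Bambi, Map2, Snap25, Gfap, Ptprc and Aif1 were added after their values were seen. Residuals of same-numbered arrays correlated at 0.43 to 0.79 in the 3 pairs at 1 h and at 0.21 to 0.75 in the 18 pairs behind the 2.5 h induction, so the numbers were taken to pair the arrays there, from the data and not from the labels. Alternatives were pseudocounts of 1 and 64, quantile normalization, median centring, a filter, eBayes with trend and robust, other arrays in the fit, the replicate block, another lead probe set and leaving out each array.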

Additional observations from a re-analysis of the deposited data

How the results depend on the processing

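The number of arrays, 3 a group, limits the precision, and depth has no counterpart here. At 1 h the fit called 0 probe sets, 76 with the replicate block and 19 with all 18 arrays in the fit (none of them a member). Without 1 of the 6 arrays it called 0 each time. The blocked fits without 1 replicate pair called 22 to 275. The block added the calls of Opn3, Fam43a and Dipk2a named above and no other among the lead probe sets and lists. The 2.5 h induction had 55 calls, 291 with the replicate block, 32 with only its 12 arrays and 242 with both (added after the data were seen). Leaving out single arrays gave 30 to 64: 30 and 32 without MEF2-VP16-ER 0 h replicates 3 and 2, 31 and 33 without control 0 h replicates 1 and 2, and 36 without control 2.5 h replicate 2. The lists had 0 calls, 1 with the block in the fit of 18 or 12 arrays, and 0 in the other settings. The 1 h induction had 1 call, 3 after quantile normalization and 2 after median centring, above the median level or with trend and robust. It had 9 with the replicate block and 0 to 2 without single arrays. Of its 18 pairs of same-numbered arrays 17 were correlated above 0.1 (lowest 0.07, highest 0.79). Its main fit had no block, so its SEs ignore this pairing. At 0 h there were 0 calls, 1 with the block. The medians over the 9 lead probe sets stayed within the spread of the replicate numbers in every setting: without single arrays they were 0.38 to 0.54 for the constructs at 1 h, 1.12 to 1.34 for the induction at 2.5 h, 0.28 to 0.41 for that at 1 h, -0.06 to 0.11 for the constructs at 0 h, and 0.19 to 0.28 for the share. The Fgl2 induction at 2.5 h was 3.08 with a pseudocount of 1 and 2.06 with 64, and its share at 1 h was 0.09 without MEF2-VP16-ER 1 h replicate 1.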
